A study of Homo sapiens with 9 samples.

Results

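The genes described here are 10 regulators of mTORC1 (DDIT4, DDIT4L, SESN1, SESN2, SESN3, DEPTOR, TSC1, TSC2, AKT1S1 and RHEB), taken by name as 10 of the 60671 rows of a table of expression values. RNA had been sequenced from AC16, a human line labelled as cardiomyocytes that was derived by fusion of adult ventricular cells with a fibroblast line. There were 3 groups of 3 libraries. The first group was AC16 cells treated with chrysin, a plant flavonoid, in high glucose, the second was AC16 cells in high glucose alone, and the third was AC16 cells in low glucose. The groups share the cell line and the library method, polyA RNA. The sources used here give neither the sugar concentrations nor the dose or duration of chrysin, and the labels do not say whether the 3 libraries of a group came from separate cultures, so the error behind each p-value is the variation among these 9 libraries and may be technical. The series title concerns ferroptosis in diabetic cardiomyopathy.

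mTORC1 is the protein kinase complex through which cells match protein synthesis and growth to nutrients, energy and growth factors, and in heart muscle it is known for its part in hypertrophic growth. The small GTPase RHEB switches it on at the lysosome. TSC1 and TSC2 form the complex that switches RHEB off, DDIT4 (also called REDD1) and its relative DDIT4L act through that complex, and the sestrins restrain the amino acid branch by binding GATOR2, with SESN2 serving as a leucine sensor. DEPTOR and AKT1S1 (PRAS40) bind the complex itself and inhibit it. DDIT4 and SESN2 are known as stress genes whose RNA is induced by the integrated stress response, low oxygen or oxidative stress, depending on the cell. These data are RNA levels, and mTORC1 activity was not measured.

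DDIT4, SESN2 and TSC2 are shown first by the DNA around their starts, because DDIT4 and SESN2 were both much lower in high than in low glucose and TSC2 was the only one of the 8 genes with an entry to hold a C/EBP-ATF response element core. Each line is the RefSeq window from 250 bases before to 50 bases after the gene's start (build GRCh38.p14), read 5′ to 3′ on the strand of the gene. Capitals mark motifs found by letter search on both strands. In DDIT4 they are a hypoxia response core in its ACGTG form and 2 CCAAT boxes (read here as ATTGG). The GCGTG form of the hypoxia response core was not searched, and it stands unmarked in the DDIT4 window. In SESN2 the capitals are 2 CCAAT boxes. In TSC2 they are an E-box (CACGTG) that overlaps the core of the C/EBP-ATF response element (TGATGNAA).
DDIT4, chr10:72273674-72273973, plus strand: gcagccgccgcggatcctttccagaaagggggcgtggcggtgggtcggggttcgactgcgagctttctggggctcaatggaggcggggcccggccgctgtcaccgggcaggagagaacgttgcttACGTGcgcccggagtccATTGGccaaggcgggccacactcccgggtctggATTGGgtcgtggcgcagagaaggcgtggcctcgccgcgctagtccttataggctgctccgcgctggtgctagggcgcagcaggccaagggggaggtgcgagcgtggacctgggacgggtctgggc
SESN2, chr1:28259268-28259567, plus strand: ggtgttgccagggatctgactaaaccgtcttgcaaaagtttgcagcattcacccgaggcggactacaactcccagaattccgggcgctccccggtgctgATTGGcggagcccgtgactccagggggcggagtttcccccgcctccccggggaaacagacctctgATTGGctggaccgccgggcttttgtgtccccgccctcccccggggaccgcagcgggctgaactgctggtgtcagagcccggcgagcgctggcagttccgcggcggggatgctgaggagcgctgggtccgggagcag
TSC2, chr16:2047735-2048034, plus strand: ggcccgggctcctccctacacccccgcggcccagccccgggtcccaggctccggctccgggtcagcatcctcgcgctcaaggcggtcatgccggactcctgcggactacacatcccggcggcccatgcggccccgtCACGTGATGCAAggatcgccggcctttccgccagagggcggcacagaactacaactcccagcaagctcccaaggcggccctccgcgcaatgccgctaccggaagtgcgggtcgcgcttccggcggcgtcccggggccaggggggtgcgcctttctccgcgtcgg

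In DDIT4 the ACGTG starts 125 bases before the gene's start and the CCAAT boxes 108 and 75 bases before it. In SESN2 the CCAAT boxes start 151 and 86 bases before the gene's start. In TSC2 the E-box and the response element core start 114 and 110 bases before the gene's first start. The window of its second start held none of the motifs searched. The 8 genes had 11 windows between them, and TSC2 is shown because it held a match. Of the 35116 windows of the same length, 3.62% held TGATGNAA, 21.4% held ACGTG, 7.26% held CACGTG (which also contains ACGTG) and 34.6% held CCAAT, with 10.8% holding 2 or more CCAAT. RHEB, which was not called in high against low glucose, also held 2 CCAAT boxes, and an ACGTG. No window of the 8 genes with an entry held the FOXO element GTAAACA (3.42% of all windows) or the ER stress element (0.0769%). These are letter matches only.

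By level per length, RHEB was the most abundant of the 10 genes and DDIT4L the least. The unit is FPKM, the fragments counted per kilobase of a gene's transcript and corrected for the size of the library. Across the 9 libraries RHEB lay between 101 and 119 FPKM, AKT1S1 between 47.0 and 64.8, TSC2 between 36.2 and 44.7 and TSC1 between 16.1 and 22.7. DDIT4 ran from 15.7 to 95.2 FPKM, SESN2 from 7.62 to 20.2 and SESN1 from 4.29 to 5.37. DEPTOR reached 3.68 FPKM, SESN3 stayed below 0.72 FPKM (19 to 34 reads per library) and DDIT4L never passed 0.270 FPKM (1 to 8 reads). In low glucose DDIT4 was second to RHEB, and the ranges of the 2 genes did not overlap. In high glucose its range lay inside that of AKT1S1. With chrysin it stood below AKT1S1, TSC2 and TSC1 in every library. The SESN1 and SESN2 ranges were apart in every group, and so were those of TSC1 and TSC2. The ranges of SESN3 and DEPTOR met with chrysin only.

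**Figure D1:**
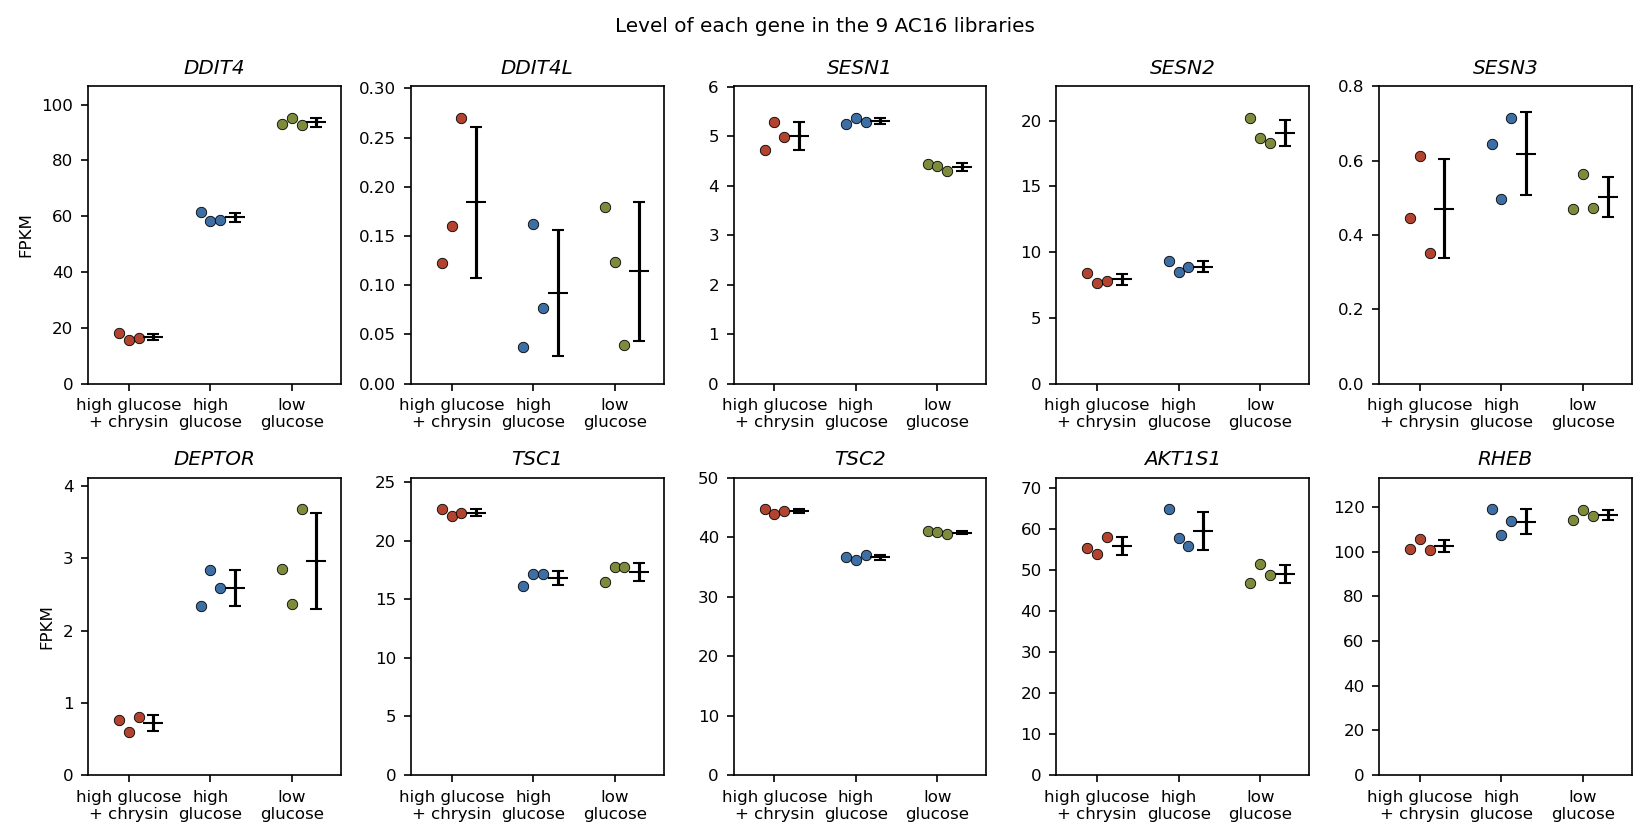
FPKM (y axis, from 0, a scale of its own per gene) of the 10 genes in the libraries of high glucose with chrysin, high glucose and low glucose. Points are single libraries, and the bar beside them is the mean with its SD (n = 3). DDIT4 lies at 15.7 to 17.9 with chrysin, 58.4 to 61.5 in high glucose and 92.6 to 95.2 in low glucose, SESN2 is high in low glucose only, and DEPTOR is low with chrysin only.

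Libraries held 18171842 to 23024300 reads, recovered from the FPKM steps. High glucose library 1 differed from libraries 2 and 3 more than other replicates did when genes with more than 10000 reads in a pair were compared. Its chi-square averaged 28.1 and 31.5 for each gene, while all other pairs of replicates gave 4.82 to 7.44. Without it every call below on the 10 genes held except that of SESN1, with DDIT4 at -0.67 in high against low glucose and -1.79 with chrysin against high glucose (limma, adjusted p = 4.3e-05 and 5.2e-08), SESN2 at -1.09 in high against low glucose (1.3e-05) and DEPTOR at -1.40 with chrysin (0.00018). Of 9 cardiomyocyte markers only NPPB was above 0.6 FPKM (9.45 to 19.6), and the contractile genes TNNT2, MYH6 and MYH7 were at or near 0, whereas all 7 fibroblast markers were expressed. Markers also moved between the groups. The 7 fibroblast markers summed to 6330 to 6490 FPKM with chrysin, 8990 to 9460 in high glucose and 7580 to 7880 in low glucose, with 6 of 7 lower with chrysin than in high glucose and 3 of 7 higher in high than in low glucose. The 4 smooth muscle markers summed to 286 to 298, 182 to 197 and 207 to 212 FPKM in the same order of groups. Most of that sum was TAGLN (means of 249, 152 and 169 FPKM), while CNN1 was lowest with chrysin (31.7, 33.6 and 37.8 FPKM). Of the 3 smooth muscle markers tested, 2 were called higher and 0 lower with chrysin than in high glucose. Against low glucose 2 were higher and 1 lower with chrysin, and 2 were lower in high glucose. The 3 endothelial markers summed to at most 0.865 FPKM and the 2 leukocyte markers to at most 1.05 FPKM. The share of reads from mitochondrial DNA was 3.80% to 3.89% with chrysin, 2.80% to 3.04% in high glucose and 2.79% to 2.90% in low glucose. The part of these shifts in the results below was not tested. In RNA from whole cultures, fewer cells expressing a gene and less RNA per cell cannot be told apart.

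The first comparison set high against low glucose. DDIT4 and SESN2 fell by the most, TSC2 fell slightly, AKT1S1 rose, and SESN1 rose by a margin that did not hold in every setting. Fold changes were taken on log2(FPKM + 0.5), a scale on which low genes change less than they do in FPKM. Adjusted p-values were computed with limma across the 16996 genes tested. Of the 10 genes 9 passed the filter on low values (mean FPKM of 0.5 or more in a group), and DDIT4L did not. Of these 9, 2 were called higher and 3 lower with an adjusted p below 0.05. Among all genes tested, 23.5% were called, 14.6% as higher and 8.91% as lower. With median-of-ratios scaling the calls over all genes were 1987 higher and 1869 lower, against 2488 and 1514 here. The median log2 fold change was -0.04 for the 9 genes and 0.02 for all genes tested.

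DDIT4, the stress-induced inhibitor that acts through the TSC complex, stood at 61.5, 58.4 and 58.7 FPKM in the high glucose libraries, against 92.9, 95.2 and 92.6 FPKM in low glucose. All high glucose libraries were below all low glucose libraries. The log2 fold change was -0.65 (SE 0.05, adjusted p = 9.5e-06), so that high glucose had 63.6% of the low glucose mean. DDIT4 lies on chromosome 10, 72273920 to 72276036, plus strand (hg38, GENCODE 29). DDIT4-AS1 overlaps it on the other strand, and the sources used here do not say whether reads were counted by strand, so the reads of the 2 genes cannot be told apart. DDIT4-AS1 was far lower (means of 1.55 FPKM in high and 2.75 in low glucose) and fell too (-0.68, adjusted p = 0.02).

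SESN2, the leucine sensor (chromosome 1, 28259527 to 28282491, plus strand), read 9.31, 8.47 and 8.90 FPKM in high glucose, against 20.2, 18.7 and 18.3 FPKM in low glucose. No high glucose library came near a low glucose one. SESN2 fell by more than any of the other 8 genes tested (log2 fold change -1.06, SE 0.06, adjusted p = 2.3e-06), to 46.6% of the low glucose mean.

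SESN1, another sestrin (chromosome 6, 108986437 to 109094819, minus strand), had 5.30 ± 0.062 FPKM in high and 4.38 ± 0.079 FPKM in low glucose (SD, n = 3), and the groups did not overlap. Its log2 fold change was 0.25 (SE 0.07, adjusted p = 0.032). That call was lost without high glucose library 1, 2 or 3 (adjusted p = 0.053, 0.082 and 0.07), without low glucose library 1, 2 or 3 (0.066, 0.069 and 0.089), with limma voom on recovered reads (0.061) and with only the groups compared (0.051), and its fold change ran from 0.22 to 0.28 over the settings. SESN3, a sestrin known to be induced by FOXO factors, was near the filter at 0.619 ± 0.11 FPKM in high and 0.502 ± 0.053 FPKM in low glucose. It did not pass the test (0.16, 95% interval -0.24 to 0.55, adjusted p = 0.59).

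The summed level of the 3 sestrins was 14.8 ± 0.46 FPKM in high glucose and 23.9 ± 1 FPKM in low glucose (SD, n = 3). SESN2 made up 60 ± 1.1% of that sum in high glucose and 79.6 ± 0.72% in low glucose, and SESN1 35.8 ± 1.5% and 18.3 ± 0.52%. Neither the sum nor the SESN2 share overlapped between high and low glucose. An exact two-sided permutation test of 3 against 3 libraries gave p = 0.1 for each, the smallest it can give (0.109 after adjustment over 12 such tests).

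TSC2, the subunit that acts on RHEB (chromosome 16, 2047465 to 2089487, plus strand), measured 36.8, 36.2 and 37.0 FPKM in high glucose, against 41.1, 40.8 and 40.5 FPKM in low glucose. The spread within groups was small and the groups did not overlap. TSC2 fell by 0.15 on the log2 scale (SE 0.03, adjusted p = 0.0052). It overlaps PKD1 and NTHL1 on the other strand, and PKD1, at 72.1 FPKM in high and 84 FPKM in low glucose, fell by 0.22 (adjusted p = 0.00076). TSC1, its stabilising partner (chromosome 9, 132891348 to 132946874, minus strand), did not pass the test (-0.04, 95% interval -0.15 to 0.07, adjusted p = 0.62).

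AKT1S1, the AKT substrate that inhibits mTORC1 when unphosphorylated (chromosome 19, 49869033 to 49878459, minus strand), rose in high glucose. It averaged 59.5 ± 4.7 FPKM in high glucose and 49 ± 2.2 FPKM in low glucose (SD, n = 3; log2 fold change 0.27, SE 0.06, adjusted p = 0.0056). High glucose library 1 was the highest at 64.8 FPKM, and the call held without it. TBC1D17 overlaps AKT1S1 on the other strand in the annotation and did not pass (0.10, adjusted p = 0.24). DEPTOR, which binds the kinase (chromosome 8, 119873717 to 120050913, plus strand), had 2.34, 2.84 and 2.58 FPKM in high glucose, against 2.85, 2.37 and 3.68 FPKM in low glucose. The groups overlapped, and DEPTOR did not pass the test (-0.15, 95% interval -0.49 to 0.19, adjusted p = 0.53). RHEB, the activator (chromosome 7, 151466012 to 151520120, minus strand), did not pass either (-0.04, 95% interval -0.12 to 0.05, adjusted p = 0.54).

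With chrysin added to high glucose, DDIT4 and DEPTOR fell and both TSC genes rose. Of the 9 genes tested 2 were called higher and 3 lower, against 45.8% of all genes called (24.9% higher, 20.9% lower). The third gene that fell was RHEB. Over all genes, median-of-ratios scaling gave 3811 calls higher and 3970 lower, against 4234 and 3558 here. The median log2 fold change was -0.14 for the 9 genes and 0.03 for all genes tested. This comparison shares the high glucose libraries with the one above.

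DDIT4 stood at 17.9, 15.7 and 16.3 FPKM with chrysin, against 61.5, 58.4 and 58.7 FPKM in high glucose. All chrysin libraries were far below all high glucose libraries. The log2 fold change was -1.81 (SE 0.05, adjusted p = 2.9e-09), to 28% of the high glucose mean. DDIT4 ranked 6 of the 16996 genes by p in this comparison. DDIT4-AS1 fell along with it, with means of 0.423 FPKM with chrysin and 1.55 FPKM in high glucose (-1.15, adjusted p = 0.00039).

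DEPTOR read 0.758, 0.602 and 0.806 FPKM with chrysin, against 2.34, 2.84 and 2.58 FPKM in high glucose. The groups were well apart, though the values rest on 17 to 27 reads per library with chrysin and 72 to 99 in high glucose. DEPTOR fell by 1.34 on the log2 scale (SE 0.15, adjusted p = 4.6e-05). Without the pseudocount the chrysin mean was 27.9% of the high glucose mean.

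SESN2 did not pass the test with chrysin. It had 8.42, 7.62 and 7.76 FPKM with chrysin, against 9.31, 8.47 and 8.90 FPKM in high glucose. The highest chrysin library lay just below the lowest high glucose one. The log2 fold change was -0.16 (95% interval -0.30 to -0.01, adjusted p = 0.07), and it passed with median-of-ratios scaling (-0.18, 0.04), with limma voom (-0.16, 0.047) and without chrysin library 1 (-0.20, 0.046). SESN1 stood at 5 ± 0.28 FPKM with chrysin and 5.30 ± 0.062 FPKM in high glucose (-0.08, 95% interval -0.24 to 0.08, adjusted p = 0.41). SESN3 did not pass (-0.21, 95% interval -0.61 to 0.19, adjusted p = 0.37).

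DDIT4 and SESN2 stood in different proportions in the 3 groups. The ratio of DDIT4 to SESN2, as FPKM within a library, was 2.1 ± 0.03 with chrysin, 6.7 ± 0.17 in high glucose and 4.92 ± 0.28 in low glucose (SD, n = 3). The groups did not overlap, and the exact permutation test gave p = 0.1 in each of the 3 comparisons, its smallest value (0.109 adjusted over the 12 tests). The SESN2 share of the sestrin sum was 59.2 ± 2.9% with chrysin and 60 ± 1.1% in high glucose, and there the groups overlapped (exact permutation p = 0.8, adjusted 0.8).

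TSC1 measured 22.7, 22.1 and 22.4 FPKM with chrysin, against 16.1, 17.2 and 17.2 FPKM in high glucose. It rose by 0.40 on the log2 scale (SE 0.05, adjusted p = 6.3e-05), and its groups did not overlap. TSC2 measured 44.7, 44.0 and 44.5 FPKM with chrysin, against 36.8, 36.2 and 37.0 FPKM in high glucose. It rose by 0.27 (SE 0.03, adjusted p = 4.1e-05), while the overlapping PKD1 fell by 0.20 (adjusted p = 0.00045). The ratio of TSC1 to TSC2 was 0.505 ± 0.0021 with chrysin, 0.459 ± 0.018 in high glucose and 0.424 ± 0.021 in low glucose (SD, n = 3). The groups did not overlap (exact permutation p = 0.1 for each comparison, the smallest possible). High and low glucose nearly touched, with the lowest high glucose library at 0.439 and the highest low glucose library at 0.438.

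RHEB was lower with chrysin, at 103 ± 2.8 FPKM with chrysin and 113 ± 5.6 FPKM in high glucose (SD, n = 3). The groups did not overlap, and the fall was 0.14 on the log2 scale (SE 0.04, adjusted p = 0.011). AKT1S1 had 55.9 ± 2.1 FPKM with chrysin and 59.5 ± 4.7 FPKM in high glucose, and did not pass (-0.09, 95% interval -0.21 to 0.04, adjusted p = 0.24). DDIT4L was too low to be tested, with means of 0.184 FPKM with chrysin, 0.092 in high glucose and 0.114 in low glucose. With no filter its adjusted p was 0.31 for chrysin against high glucose and 0.92 for high against low glucose.

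**Figure D2:**
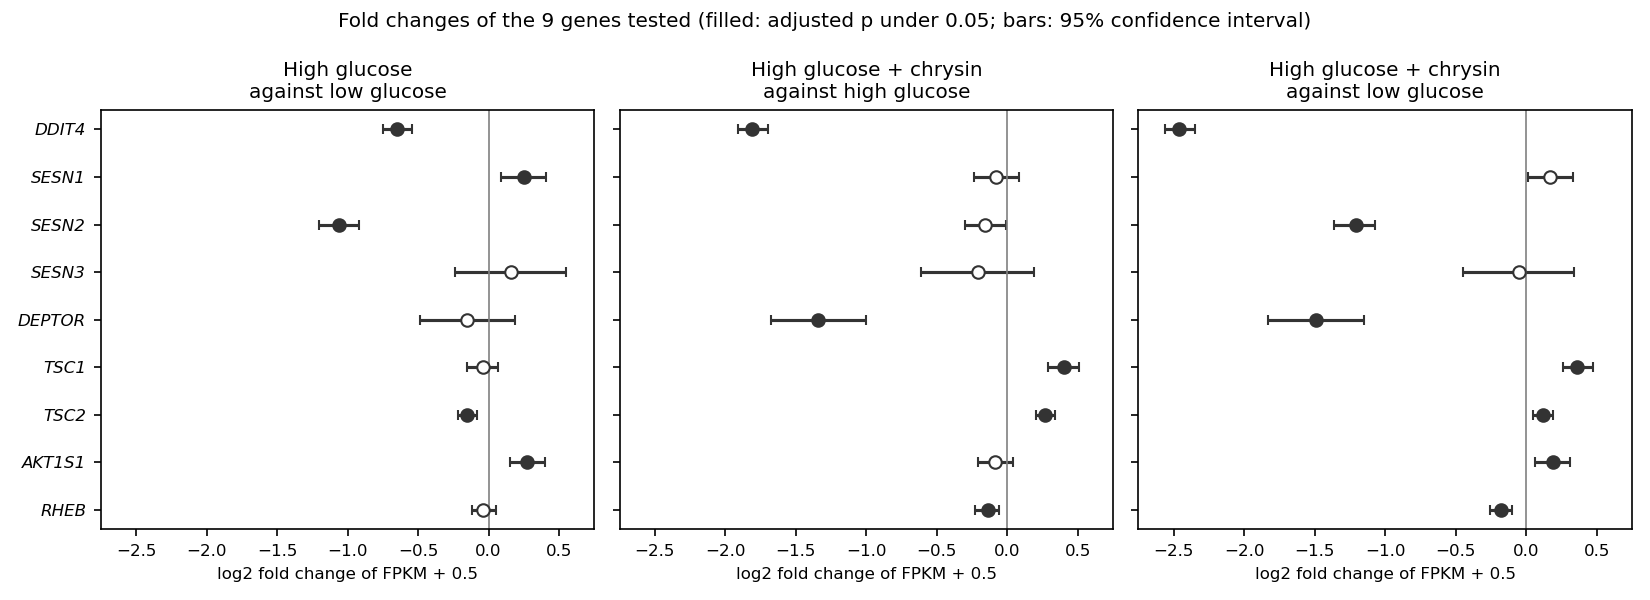
Log2 fold changes (x axis, on FPKM + 0.5) of the 9 genes tested, for high against low glucose, chrysin against high glucose and chrysin against low glucose. Filled points passed an adjusted p under 0.05, open points did not, and bars are 95% confidence intervals from limma. DDIT4 lies left of 0 in all 3 panels (-0.65, -1.81 and -2.46), SESN2 is filled in the panels set against low glucose only, and TSC1 is filled in the panels with chrysin only.

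High glucose with chrysin against low glucose shares libraries with both comparisons above. Of the 9 genes 3 were called higher and 4 lower, against 51.0% of all genes called (29.7% higher, 21.3% lower). Over all genes, median-of-ratios scaling gave 4217 calls higher and 4348 lower, against 5048 and 3616 here. DDIT4 had 17.8% of its low glucose mean with chrysin (log2 fold change -2.46, SE 0.05, adjusted p = 1.2e-10), and ranked 4 of all genes tested by p. SESN2 (-1.21, SE 0.06, adjusted p = 1.5e-07), DEPTOR (-1.49, SE 0.15, adjusted p = 1.6e-05) and RHEB (-0.18, SE 0.04, adjusted p = 0.0025) fell as well. TSC1 rose by 0.36 (SE 0.05, adjusted p = 1e-04). TSC2 rose by 0.12 (adjusted p = 0.0075), which did not hold with median-of-ratios scaling (0.06, adjusted p = 0.12). AKT1S1 rose by 0.19 (adjusted p = 0.017), which was lost with that scaling (0.13, 0.083), without chrysin library 3 (0.16, 0.068) and without low glucose library 1 (0.16, 0.067). SESN1 (0.17, adjusted p = 0.075) and SESN3 (-0.05, adjusted p = 0.83) did not pass.

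The genes around these regulators were taken from 9 lists written from knowledge of the pathway, with 94 genes of which 90 were tested. In high against low glucose 12 of the 90 rose and 18 fell, beside 14.6% and 8.91% of all genes tested (median log2 fold change -0.04, against 0.02 for all genes). In chrysin against high glucose 26 rose and 23 fell, beside 24.9% and 20.9% of all genes (median 0.00, against 0.03). The same shares of all genes are to be read beside the counts of each list below. The lists are short, and none was tested as a set.

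RNA of transcription factors known to induce DDIT4 or the sestrins was lower in many cases. Like the other lists, this one was written with earlier results of these data known. Whether the levels of these factors bear on those of DDIT4 and the sestrins here was not tested. Of 11 factors 6 fell and none rose in high against low glucose, beside 8.91% and 14.6% of all genes tested. The median was -0.22, against 0.02 for all genes tested. DDIT3 (CHOP), the stress factor downstream of ATF4, had 9.67 ± 0.075 FPKM in high and 103 ± 5.2 FPKM in low glucose (SD, n = 3; -3.35, adjusted p = 2.4e-10). ATF4, which drives the integrated stress response, had 275 ± 5.6 FPKM in high and 403 ± 7.5 FPKM in low glucose (-0.55, adjusted p = 2.4e-07). The hypoxia-inducible factor subunits EPAS1 (-0.40, adjusted p = 4.4e-05) and HIF1A (-0.22, adjusted p = 0.0017) fell as well. With chrysin against high glucose, 8 of the 11 fell and 1, EPAS1, rose (0.13, adjusted p = 0.016). Of all genes tested 20.9% fell and 24.9% rose. The median was -0.21 for the factors, against 0.03 for all genes. DDIT3 fell by 0.94 (adjusted p = 1.6e-06) and ATF3, another stress-induced factor, by 0.84 (adjusted p = 3.8e-05). NFE2L2 (NRF2), of the antioxidant response, fell by 0.36 (adjusted p = 2.7e-05) and ATF4 by 0.14 (adjusted p = 0.00093).

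Of the 9 subunits and assembly factors of the mTOR complexes, 2 rose and 1 fell in high glucose, and 4 rose and 2 fell with chrysin. In high glucose MAPKAP1, the mTORC2 subunit SIN1, rose by 0.23 (adjusted p = 0.00028) and MLST8, shared by both complexes, fell by 0.23 (adjusted p = 0.011). RPTOR, which defines mTORC1, rose by 0.19 (adjusted p = 0.016), a call lost without high glucose library 2 (0.054) or low glucose library 1 (0.064). With chrysin MTOR itself had 69 ± 1.5 FPKM, against 56.2 ± 2 FPKM in high glucose (SD, n = 3; 0.29, adjusted p = 5.7e-05). The assembly factors TTI1 (0.32, adjusted p = 0.00019) and TELO2 (0.25, adjusted p = 2e-04) rose too. PRR5L, an mTORC2 partner, fell by 0.25 (adjusted p = 0.0027). RHEBL1, a RHEB relative, was at 5.03 ± 0.96 FPKM with chrysin and 6.78 ± 0.91 FPKM in high glucose (-0.40, adjusted p = 0.022), a call lost without chrysin library 2 (0.073) or 3 (0.087), high glucose library 1 (0.081) or 2 (0.054), or with no filter (0.057). In high against low glucose RHEBL1 did not pass (-0.36, adjusted p = 0.06), though it did without chrysin library 1 (0.025) or high glucose library 1 (0.036), with median-of-ratios scaling (0.049), with limma voom (0.03), with the filter at 5 FPKM (0.033) and with only the groups compared (0.031). TBC1D7, the third subunit of the TSC complex, did not pass in high against low glucose (-0.12, adjusted p = 0.3) or with chrysin against high glucose (-0.18, adjusted p = 0.068). It passed in the first without high glucose library 3 (0.049) and in the second without high glucose library 2 (0.034), with median-of-ratios scaling (0.04) and with the filter at 5 FPKM (0.05, before rounding just under the threshold).

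In the amino acid branch, 2 of 15 genes of GATOR1, GATOR2, KICSTOR and the sensors rose and 2 fell in high glucose. CASTOR2, related to the arginine sensor, had 4.87 ± 0.41 FPKM in high and 2.69 ± 0.28 FPKM in low glucose (SD, n = 3; 0.75, adjusted p = 0.00032), although CASTOR2 has near-identical copies that make its reads uncertain. MIOS, a GATOR2 subunit, fell by 0.29 (adjusted p = 0.002), and SAR1B, a leucine sensor like SESN2, rose by 0.27 (adjusted p = 0.0033). With chrysin 6 of the 15 rose and 2 fell. KICS2, a KICSTOR subunit listed under its older name C12orf66, had 6.48 ± 0.5 FPKM with chrysin and 2.36 ± 0.52 FPKM in high glucose (1.30, adjusted p = 2.7e-05). The GATOR2 subunit SEC13 rose by 0.32 (adjusted p = 0.00014), while the KICSTOR subunit ITFG2 fell by 0.29 (adjusted p = 0.0026). Among 9 Rag and Ragulator genes, which carry mTORC1 to the lysosome, 1 rose and 1 fell in each comparison. RRAGA rose in high glucose (0.27, adjusted p = 0.0019), and LAMTOR5 fell with chrysin (-0.16, adjusted p = 0.0055). SLC38A9 fell in high glucose (-0.22, adjusted p = 0.027), a call lost without high glucose library 1 (0.08) or 2 (0.069), low glucose library 2 (0.096) or 3 (0.075), or with no filter (0.065). RRAGC rose with chrysin (0.25, adjusted p = 0.015), lost without chrysin library 1 (0.061).

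In the list of 6 genes of the folliculin complex, which acts on RagC, and the TFEB family, 2 fell in high glucose, and 2 rose and 1 fell with chrysin. The 2 comparisons share the high glucose libraries. FLCN had 22.3 ± 1.1 FPKM with chrysin, 17.5 ± 1.5 FPKM in high glucose and 24.3 ± 1.3 FPKM in low glucose (SD, n = 3). It fell by 0.46 in high against low glucose (adjusted p = 0.00074) and rose by 0.34 with chrysin (adjusted p = 0.0016). Its partner FNIP1 fell by 0.35 (adjusted p = 0.00097) and rose by 0.31 (adjusted p = 7e-04). MITF, of the TFEB family, fell with chrysin (-0.49, adjusted p = 0.0015). In high glucose it did not pass (-0.28, adjusted p = 0.054), but it did without high glucose library 3 (0.0092) or chrysin library 2 (0.049) and, together with TFE3, with limma voom (0.0074 and 0.041), median-of-ratios scaling (both 0.037) and the filter at 5 FPKM (0.03 and 0.046). TFE3 also passed without chrysin library 1 (0.037). Of 11 genes of AMPK, the energy sensor that restrains mTORC1, 1 rose and 1 fell in high glucose, and 2 rose and 1 fell with chrysin. CAB39, a partner of the upstream kinase, rose in high glucose (0.16, adjusted p = 0.01). The fall of PRKAG1 there (-0.11, adjusted p = 0.027) was lost without high glucose library 2 (0.078) or 3 (0.06), without low glucose library 1 (0.064), 2 (0.082) or 3 (0.068), with limma voom (0.12) and with only the groups compared (0.067). With chrysin the AMPK subunits PRKAB1 and PRKAA1 went opposite ways (0.34, adjusted p = 0.00036, and -0.29, adjusted p = 0.00047). STRADA passed as well (0.34, adjusted p = 0.041) but not without chrysin library 1 (0.16) or 3 (0.053), high glucose library 1 (0.13) or 2 (0.067) or low glucose library 3 (0.054), with no filter (0.091) or with median-of-ratios scaling (0.057).

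In the PI3K and AKT arm, which signals from growth factors to TSC2 and AKT1S1, 3 of 11 genes rose and none fell in high glucose, and 3 rose and 3 fell with chrysin. AKT1 (0.23, adjusted p = 0.0012), the regulatory subunit PIK3R1 (0.41, adjusted p = 0.008) and PDPK1 (0.21, adjusted p = 0.014) were those that rose in high glucose, and PDPK1 lost its call without high glucose library 2 (0.056). With median-of-ratios scaling 2 of the arm's genes fell. With chrysin the lipid phosphatase INPP4B had 10.5 ± 0.43 FPKM, against 17.3 ± 0.56 FPKM in high glucose (SD, n = 3; -0.69, adjusted p = 5.4e-06).

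Among 16 mTORC1 substrates and translation genes, 3 rose and 5 fell in high glucose, and 7 rose and 4 fell with chrysin. The 4E-binding proteins, repressors of cap-dependent translation that mTORC1 inactivates, differed from each other. EIF4EBP1 had 77.5 ± 1.5 FPKM with chrysin, 107 ± 3.9 FPKM in high glucose and 125 ± 2.5 FPKM in low glucose (SD, n = 3). It fell in high glucose (-0.22, adjusted p = 0.00085) and with chrysin (-0.46, adjusted p = 1.8e-06). EIF4EBP2 had 26.1 ± 0.57, 21.8 ± 0.57 and 16.2 ± 0.7 FPKM in the same order of groups, and rose in both comparisons (0.42, adjusted p = 0.00014, and 0.25, adjusted p = 0.0011). With chrysin PDCD4, an inhibitor of translation initiation, had 14.1 ± 0.41 FPKM, against 40.2 ± 1.6 FPKM in high glucose (-1.48, adjusted p = 6.8e-09). ULK1, the kinase that starts autophagy and is held off by mTORC1, had 16.2 ± 0.66 FPKM with chrysin and 31.8 ± 1.7 FPKM in high glucose (-0.95, adjusted p = 2.8e-07). MAF1, a repressor of RNA polymerase III, fell by 0.40 (adjusted p = 5.8e-05).

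**Figure D3:**
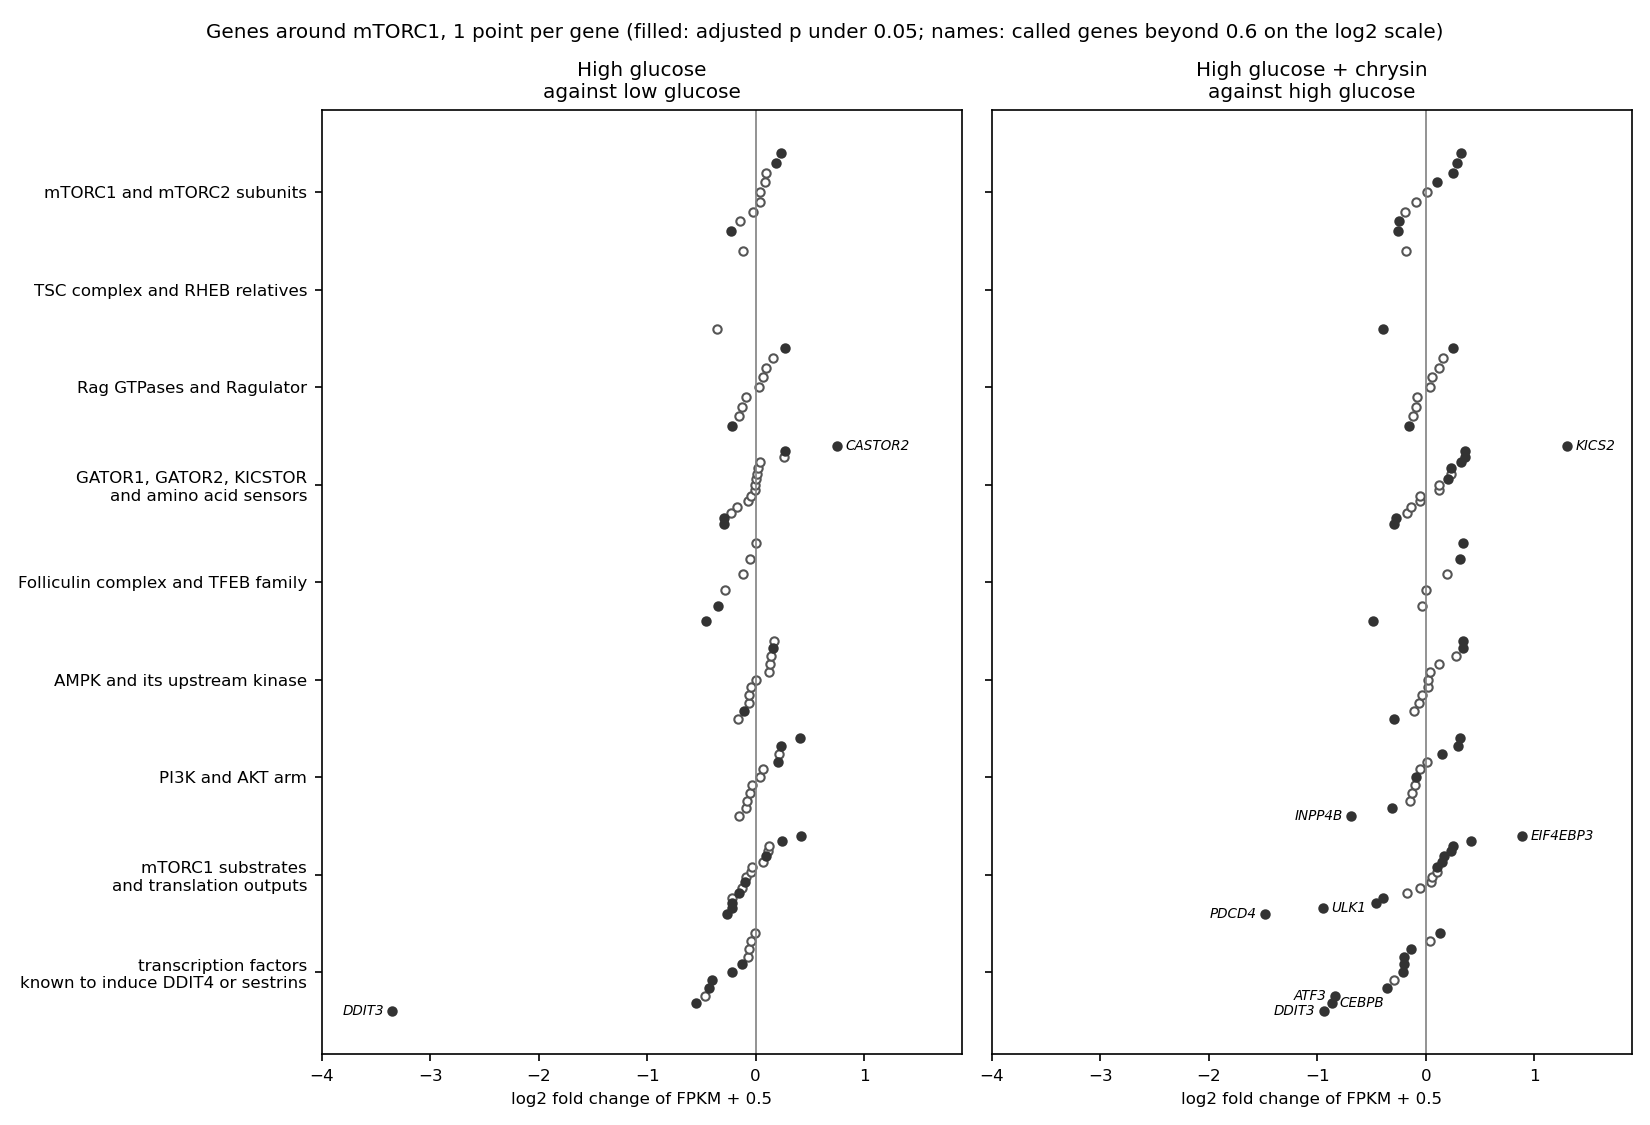
Log2 fold changes (x axis, on FPKM + 0.5) of the 90 tested genes of the 9 lists, with 1 point per gene and 1 list per band, for high against low glucose and for chrysin against high glucose. Filled points passed an adjusted p under 0.05, and called genes beyond 0.6 are named. DDIT3 lies far to the left in high glucose (-3.35). With chrysin PDCD4 (-1.48) and ULK1 (-0.95) are among the points to the left, and KICS2 (1.30) lies to the right. Most other points lie close to 0.

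Genes with the profile most like DDIT4 over the 9 libraries were found by Pearson correlation of log2(FPKM + 0.5) among 12796 other genes whose mean was 1 FPKM or more. The 5 closest were MOK (r = 0.9968), LOXL2 (0.9966), LACTB (0.9965), DAB2 (0.9963) and FBXO32 (0.9959). All had their highest level in low glucose and their lowest with chrysin, by smaller steps than DDIT4 on the log2 scale. FBXO32, a ubiquitin ligase of muscle atrophy, came nearest in size on that scale. It had 2.48 ± 0.22 FPKM with chrysin, 8.15 ± 0.8 FPKM in high glucose and 12.1 ± 0.55 FPKM in low glucose (SD, n = 3). The 5 closest to SESN2 were PPP1R15A (0.9966), FHL2 (0.9963), TRIB3 (0.9952), PCK2 (0.9928) and ACTG1 (0.9922), and no gene stood in both lists of 5. PPP1R15A, a subunit of the phosphatase that restores translation after stress, had 46.2 ± 0.95 FPKM with chrysin, 52.4 ± 2.4 FPKM in high glucose and 106 ± 2.1 FPKM in low glucose. TRIB3, a pseudokinase that binds AKT, had a larger step between low glucose and the rest than SESN2 (18.7 ± 1.1, 23.4 ± 0.84 and 83.4 ± 1.4 FPKM in the same order). These correlations describe 9 points that share their libraries and fall into 3 groups, so they follow mainly the 3 group means, and many genes have such a profile.

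**Figure D4:**
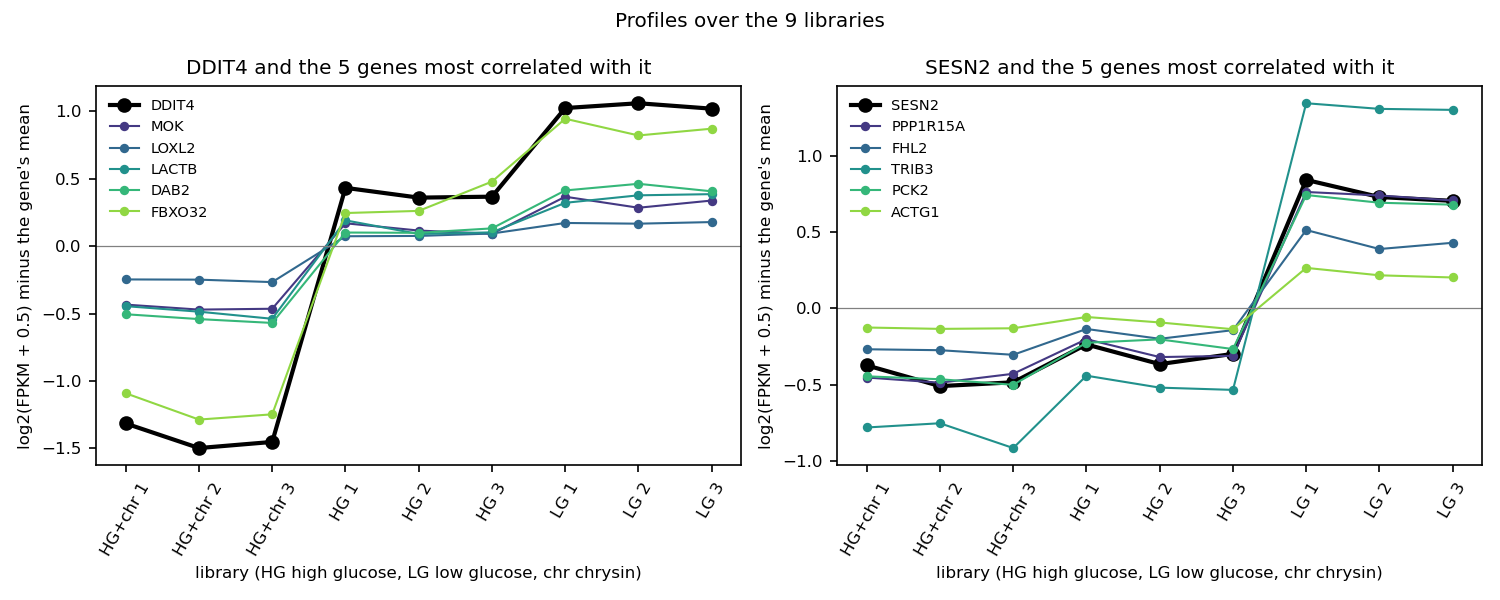
Log2(FPKM + 0.5) minus the gene's mean (y axis) in each of the 9 libraries (x axis), for DDIT4 and for SESN2 (black) and the 5 genes most correlated with each (coloured). The DDIT4 panel has 3 levels, lowest with chrysin and highest in low glucose, and the SESN2 panel has low glucose far above the other 6 libraries.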

How the data were processed

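RNA of 9 AC16 libraries, 3 per group, was analysed, with each library's group taken from its treatment label. The deposited values are FPKM, a unit inferred from their low values because no header names it. The submitters' processing notes list HISAT2 2.2.1, HTSeq 0.13.5, StringTie 2.2.1, fastp 0.23.4 and the build hg38 without saying what each did. The sources used here give neither the annotation nor a strand setting.

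Low values are whole multiples of a step per gene. Dividing by it returned whole reads (to within 4.6e-05 reads, and known only up to a divisor shared by the libraries) for each of the 28230 genes detected in at least 2 libraries. Genes above 0 in 1 library (4119) were given 1 read.

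Log2(FPKM + 0.5) of the 16996 genes whose mean reached 0.5 FPKM in a group was tested with limma 3.58.1 (R 4.3.3, trend on). All 9 libraries entered 1 fit, with two-sided contrasts and Benjamini-Hochberg adjustment over all genes tested. Rows with a repeated gene name (1094) were separate genes. Positions came from GENCODE 29 and start windows from RefSeq (8 of the 10 genes).

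The members and lists were chosen with earlier results of these data known. Besides the 10 genes, up to 4 genes per list with the smallest p in a comparison were named, and the 5 genes most correlated with DDIT4 and with SESN2. ATF4, EPAS1 and EIF4EBP2 with chrysin were named outside that rule, after their values were seen. Results for some other genes that this rule names or that overlap a member are not reported here.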

Additional observations from a re-analysis of the deposited data

How the results depend on the processing

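The 8 other settings and the 9 fits without a library left each total of called genes within 1.5 times the reported one. The counts by direction among the 9 tested genes moved more: 1 gene in place of 2 was called higher in high against low glucose wherever SESN1 lost its call, and 1 in place of 3 with chrysin against low glucose under median-of-ratios scaling. The calls over all genes ran from 2971 to 4654 in high against low glucose, from 6279 to 8301 with chrysin against high glucose and from 6923 to 8984 with chrysin against low glucose, and the calls among the 9 tested genes from 4 to 5, 4 to 6 and 5 to 7. Of 151 values per comparison for these genes, 9, 0 and 4 lost their call and 0, 4 and 0 gained one. SESN3 with chrysin against low glucose changed sign without chrysin library 3 (0.04, adjusted p = 0.9), ranged from -0.16 to 0.04 when single libraries were left out, and was not called in any setting. DDIT4 kept its direction and its call in all 17 settings of each comparison, between -0.68 and -0.64, between -1.86 and -1.77 and between -2.51 and -2.42. Titles number the libraries 1 to 3 in each group. Same-numbered libraries did not deviate together over the genes tested (correlations from -0.015 to 0.008). A weak pairing, or one limited to few genes, would not show in these correlations, and the labels state none. With the replicate number as a block the calls over all genes were 3693, 7546 and 8423 and those among the 9 genes 4, 6 and 7; SESN1 in high against low glucose was then at an adjusted p of 0.056, SESN2 with chrysin against high glucose at 0.048 and, in high against low glucose, RHEBL1 at 0.03. Low read numbers limit DEPTOR, SESN3 and DDIT4L.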
